A study of Mus musculus with 4 samples.

Results

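The genes of antigen presentation by MHC class I molecules were followed in LSK cells, the bone marrow fraction without lineage markers and with c-Kit and Sca1 that holds haematopoietic stem cells and multipotent progenitors. The list named 10 genes, and their members were all probe sets annotated to 1 of these genes and to no other. This gave 26 of the 45037 probe sets tested, for 9 of the 10 genes. H2-T23 had only probe sets shared with the pseudogene H2-T-ps and so had no member. LSK cells were flushed from the femurs of WT B6/129 mice and sorted by c-Myc-eGFP into 2 groups of 2 arrays each, Hi and Lo. Both groups therefore carried the tagged protein and shared genotype and background, and no treatment is named. The age of the mice, the number of mice behind an array and any pooling are not given in the labels used here. The p-values therefore rest on the spread between these arrays, which may be technical, and on a spread shared over all probe sets. The comparison asks how transcript levels differ between LSK cells with much and with little c-Myc protein.

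MHC class I molecules display peptides from inside the cell at its surface. A heavy chain and the light chain beta-2-microglobulin are folded in the endoplasmic reticulum, the TAP transporter brings in peptides made by the proteasome, tapasin helps to load them, and the peptidase ERAP1 trims them to length. NLRC5 is the transcriptional activator of the class I genes, the counterpart of CIITA for class II genes, and interferons raise the whole pathway. In blood-forming cells, class I molecules are read by cytotoxic T cells and, through inhibitory receptors, by natural killer cells.

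Most class I presentation transcripts were above the dim limit in both groups, and none of them passed the test between Hi and Lo. The dim limit is the brightest bacterial control probe set of an array, between 4.735 and 4.872 on the log2 scale. Of the 26 member probe sets, 22 lay above it on all 4 arrays, 1 was at or under it on some and 3 on all. With limma, 0 of 26 were called at an adjusted p under 0.05, where 0% of all 45037 probe sets were called in either direction. At an unadjusted p under 0.05, 2 of the 26 were lower in Hi, against 8.91% of all probe sets, and 0 were higher, against 9.05%. The adjusted p of the members ran from 0.241 to 0.949. For 22 of the 26 the 95% interval of the difference stayed within 1 log2 unit, that is less than 2-fold, on either side of 0. These 22 include all those at or under the dim limit on some or all arrays, which carry little signal. The share of all probe sets with such an interval was not counted.

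The direction leaned to lower values in Hi without passing a test. Both Hi arrays lay below both Lo arrays in 12 of the 26 member probe sets, against 22.0% of all probe sets, and above both in 3 of 26, against 29.3%. Several of the 26 read the same transcript and are not independent. With the probe set of the highest mean standing for each gene, 7 of 9 genes had a negative and 2 a positive difference of Hi minus Lo, while 46.4% of all 18193 genes were negative. The groups were separate with Hi lower in 5 of the 9 genes, against 25.4% of all genes, and with Hi higher in 1, against 30.0%. Among the 5, the gap was only 0.0059 for B2m, 0.046 for Tapbp and 0.075 for H2-K1, and it was 0.18 for H2-D1 and 0.33 for Nlrc5. B2m and Tapbp turned positive when the arrays were shifted to 1 median, a scaling that moved the median difference of all genes from 0.03 to 0.12. The median of the 9 genes was -0.18 on the log2 scale, against 0.03 over all genes. It was -0.05 without Lo replicate 2 and -0.07 without Hi replicate 1. It was -0.06 with the probe sets of a gene averaged, -0.09 with the probe set of smallest SD within groups, and -0.08 with arrays shifted to 1 median. In such bulk samples, fewer cells of a type and less RNA per cell cannot be told apart.

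**Figure D1:**
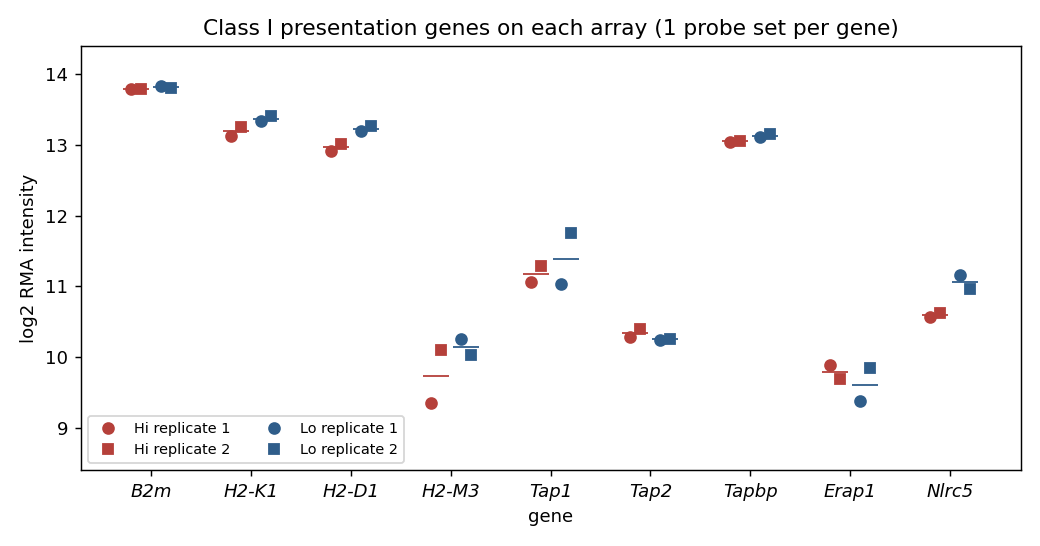
Log2 intensity of 9 class I presentation genes on each array, with 1 probe set per gene; red marks are Hi and blue marks are Lo, circles are replicate 1 and squares replicate 2, and the short lines are group means. The Hi and Lo marks lie close together for B2m, Tap2 and Tapbp, and those of Nlrc5 are separate, with Hi at 10.56 and 10.63 and Lo at 11.16 and 10.96.

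The light chain gene B2m differed by little between the groups. Its brighter probe set stood at 13.79 and 13.79 in Hi and at 13.84 and 13.8 in Lo. The groups did not overlap, yet the gap between them was only 0.0059. The difference was -0.03 ± 0.13 (SE; 95% interval -0.39 to 0.33; limma adjusted p = 0.94). The SD of this probe set was 0.0013 in Hi and 0.029 in Lo, so its SE rests mostly on the spread shared over all probe sets. The other B2m probe set, at 13.44 and 13.45 in Hi and 13.54 and 13.53 in Lo, differed by -0.09 ± 0.13 (adjusted p = 0.765).

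The classical heavy chain genes H2-K1 and H2-D1, which carry the peptides shown to CD8 T cells, both had small negative differences. H2-K1 stood at 13.13 and 13.26 in Hi and at 13.34 and 13.41 in Lo, a difference of -0.18 ± 0.14 (SE; 95% interval -0.57 to 0.21; limma adjusted p = 0.567). H2-D1 stood at 12.92 and 13.02 in Hi and at 13.2 and 13.27 in Lo, a difference of -0.27 ± 0.14 (95% interval -0.64 to 0.11; adjusted p = 0.406). In both genes the 2 Hi arrays were the lower ones and did not overlap with Lo.

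The probe sets of these heavy chain genes differed among themselves. Class I heavy chains are close paralogues, and the array maker gives the suffix x_at to probe sets that may bind related transcripts. All 4 probe sets of H2-K1 carry this suffix, with differences from -0.26 to -0.16. Of the 9 probe sets of H2-D1, 7 carry it, with differences from -0.29 to 0.05. These values cannot be given to 1 heavy chain with certainty. The H2-D1 probe set without that suffix that was above the dim limit stood at 10.36 and 10.69 in Hi and at 10.99 and 11.38 in Lo. The difference, -0.66 ± 0.22 (SE; 95% interval -1.28 to -0.05), was 1.58-fold and had a limma adjusted p of 0.254. The other H2-D1 probe set without the suffix did not exceed the dim limit on any of the 4 arrays. A probe set shared by H2-K1 and H2-D1, which is no member, differed by -0.25 ± 0.15. Another, shared by H2-D1, H2-Q2 and Gm38417, stood at 5.24 and 5.28 in Hi and at 5.26 and 5.24 in Lo. Its difference was 0.0 ± 0.13. A probe set shared by H2-K1 and H2-Q5 had 0.0 ± 0.17 and did not exceed the dim limit on any of the 4 arrays.

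**Figure D2:**
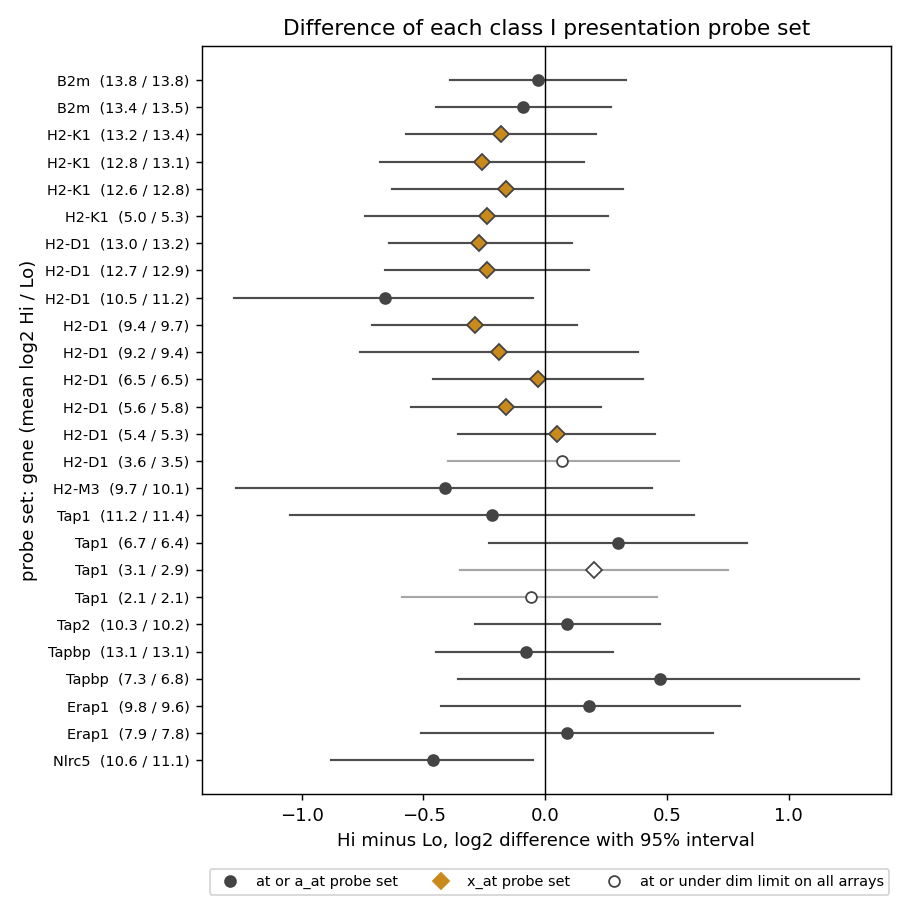
Difference of Hi minus Lo on the log2 scale for each of the 26 member probe sets, with its 95% interval from limma; labels give the gene and its mean log2 intensity in Hi and Lo, diamonds are x_at probe sets and open marks never exceeded the dim limit. The intervals of Nlrc5 and of 1 H2-D1 probe set lie below 0 before adjustment, and all others cross 0.

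The nonclassical heavy chain gene H2-M3, whose product presents peptides with a formylated end as bacteria and mitochondria make them, varied most between the Hi arrays. It stood at 9.35 and 10.1 in Hi and at 10.26 and 10.03 in Lo. Hi replicate 1 was low and Hi replicate 2 lay between the Lo arrays. Its difference was -0.41 ± 0.31 (SE; limma adjusted p = 0.545), and it was -0.04 without Hi replicate 1 and -0.79 without Hi replicate 2.

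H2-T23 encodes Qa-1, the heavy chain that holds leader peptides of other class I molecules for the inhibitory receptor of natural killer cells. It can be described only through the 2 probe sets that its pseudogene shares. The first stood at 11.21 and 11.56 in Hi and at 11.86 and 12.32 in Lo, a difference of -0.71 ± 0.24 (SE; 95% interval -1.38 to -0.03; limma adjusted p = 0.262). The second stood at 8.43 and 7.74 in Hi and at 10.07 and 9.11 in Lo, a difference of -1.5 ± 0.44 (95% interval -2.73 to -0.28; adjusted p = 0.217). On both, the Hi arrays lay below the Lo arrays and neither passed.

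The transporter genes Tap1 and Tap2 did not separate the groups in 1 direction. Tap1 stood at 11.06 and 11.29 in Hi and at 11.03 and 11.75 in Lo, so that Lo replicate 1 was the lowest array and Lo replicate 2 the highest. Its difference was -0.22 ± 0.3 (SE; limma adjusted p = 0.749), and it was 0.14 without Lo replicate 2. A dimmer Tap1 probe set gave 0.3 ± 0.19, and the other 2 of its 4 probe sets never exceeded the dim limit. Tap2 stood at 10.28 and 10.4 in Hi and at 10.24 and 10.26 in Lo, a difference of 0.09 ± 0.14 (95% interval -0.29 to 0.47; adjusted p = 0.781).

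Tapasin, the product of Tapbp, bridges TAP and the empty class I molecule. Tapbp stood at 13.04 and 13.06 in Hi and at 13.11 and 13.16 in Lo, a difference of -0.08 ± 0.13 (SE; 95% interval -0.45 to 0.28; limma adjusted p = 0.789). A dimmer Tapbp probe set had the opposite sign, at 7.27 and 7.35 in Hi and 7.21 and 6.46 in Lo, with 0.47 ± 0.3 (adjusted p = 0.485). Lo replicate 2 was the low array there. Erap1 stood at 9.89 and 9.69 in Hi and at 9.38 and 9.85 in Lo, a difference of 0.18 ± 0.22 (adjusted p = 0.719) that was -0.05 without Lo replicate 1. Its second probe set gave 0.09 ± 0.22.

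The activator gene Nlrc5 had the smallest p among the members. It stood at 10.56 and 10.63 in Hi and at 11.16 and 10.96 in Lo, with a gap of 0.33 between the groups. The difference was -0.46 ± 0.15 (SE; 95% interval -0.88 to -0.05), 1.38-fold, with an unadjusted p of 0.0357 and a limma adjusted p of 0.241. Leaving out single arrays and changing the scaling, it ran from -0.56 to -0.37. It was read by 1 probe set only.

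Promoter sequence is given for H2-K1 and H2-D1, whose differences were both negative, for B2m, which holds an interferon-type element, and for Erap1, which holds the CACGTG element known to bind Myc with its partner Max. RefSeq windows of build GRCm38.p6 were found for 8 of the 10 genes, and not for Tap2 and Nlrc5. The stretches below are the 250 bases before the start, 5′ to 3′ on the gene's strand, at chr17:34000348-34000597 (minus strand) for H2-K1, chr17:35262844-35263093 (plus) for H2-D1, chr2:122147437-122147686 (plus) for B2m and chr13:74639603-74639852 (plus) for Erap1. Capitals mark the palindromic NF-kB site, the core of the interferon-stimulated response element, CACGTG, and CCAAT or its reverse complement ATTGG (bound by NF-Y).
H2-K1: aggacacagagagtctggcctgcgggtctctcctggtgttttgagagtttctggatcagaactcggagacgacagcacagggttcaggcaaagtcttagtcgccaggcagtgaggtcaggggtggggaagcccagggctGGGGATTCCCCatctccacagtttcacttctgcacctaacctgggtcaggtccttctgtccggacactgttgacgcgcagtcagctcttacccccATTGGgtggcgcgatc
H2-D1: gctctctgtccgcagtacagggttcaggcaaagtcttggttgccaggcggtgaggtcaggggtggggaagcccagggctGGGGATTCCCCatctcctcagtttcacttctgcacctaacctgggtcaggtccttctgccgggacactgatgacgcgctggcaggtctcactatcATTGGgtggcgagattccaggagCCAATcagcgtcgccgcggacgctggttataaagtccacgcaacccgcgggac
B2m: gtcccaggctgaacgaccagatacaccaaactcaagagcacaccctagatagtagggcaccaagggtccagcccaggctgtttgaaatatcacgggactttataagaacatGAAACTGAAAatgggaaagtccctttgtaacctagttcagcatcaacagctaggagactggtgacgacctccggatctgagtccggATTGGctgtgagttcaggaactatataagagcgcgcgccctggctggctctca
Erap1: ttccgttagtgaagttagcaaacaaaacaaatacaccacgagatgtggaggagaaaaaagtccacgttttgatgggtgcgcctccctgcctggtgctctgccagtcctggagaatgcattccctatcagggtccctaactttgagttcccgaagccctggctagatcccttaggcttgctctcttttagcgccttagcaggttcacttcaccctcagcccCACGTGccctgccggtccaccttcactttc

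H2-K1 and H2-D1 share an unbroken run of 47 bases that spans the NF-kB site. This element was searched on both strands and lay in the 300-base windows of 2 of the 8 genes, H2-K1 and H2-D1, and in 0.0304% of all 32851 windows. An exact match to the interferon core was found for 3 of the 8 genes, B2m, Erap1 and H2-T23, against 3.44% of all windows. The Erap1 match crosses the start and so is not in the stretch printed. Only 1 form of this core was searched, and only exact matches are in capitals. Interferon sites that differ from this form are not counted. Whether H2-K1, H2-D1 or the other genes without a match hold such a site was not tested. CACGTG was found for 1 of the 8, Erap1, 30 bases before the start, against 7.15% of all windows. The CCAAT element was found for 7 of 8, all but Erap1, against 37.4%, and TGACGTCA, a cAMP response element, for 0 of 8 against 1.79%. None of the searched motifs contains another. These matches describe letters in the windows and not binding. Beside them stand the differences given above, -0.18 for H2-K1, -0.27 for H2-D1, -0.03 for B2m and 0.18 for Erap1 (-0.05 without Lo replicate 1). The probe sets that H2-T23 shares with its pseudogene had -0.71 and -1.5. Whether the matches bear on these differences was not tested.

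Tap1 faces Psmb9, a subunit of the immunoproteasome, across a shared promoter, with 226 bases between their starts on opposite strands. Psmb9, chosen for this position, stood at 12.24 and 12.35 in Hi and at 12.03 and 12.28 in Lo, a difference of 0.14 ± 0.16 (SE) that did not pass (limma adjusted p = 0.696). Of the 5 measured genes of the immunoproteasome and the proteasome activator PA28, 3 were higher and 2 lower in Hi, with a median of 0.10. That median was -0.01 without Lo replicate 1, 0.21 without Lo replicate 2, 0.06 without Hi replicate 2, 0.04 after cyclic loess and 0.19 with arrays shifted to 1 median. At an unadjusted p under 0.05, 1 was higher, where 9.25% of all genes were, and 0 were lower, where 11.0% were. Psme3, the nuclear activator subunit that does not serve class I peptides in the way of Psme1, had 0.77 ± 0.13 (adjusted p = 0.117), and the catalytic subunit gene Psmb10 had -0.42 ± 0.26. The 3 constitutive catalytic subunits had a median of 0.12 (0.07 after cyclic loess and 0.21 with arrays shifted to 1 median), with Psmb5 at 0.18 ± 0.13 and Psmb7 at 0.12 ± 0.13.

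Genes of the endoplasmic reticulum that fold glycoproteins, the class I heavy chain among them, had values on the positive side. Of 9 measured, 7 were higher and 2 lower in Hi, with a median of 0.24, which ran from 0.19 to 0.33 over the alternatives. The Hi arrays exceeded the Lo arrays without overlap in 7 of the 9, against 30.0% of all genes. At an unadjusted p under 0.05, 1 of the 9 was higher, against 9.25% of all genes, and 0 lower, against 11.0%. Erp29, a chaperone, had 0.59 ± 0.19 (SE; limma adjusted p = 0.237) and Uggt1, the sensor of misfolded glycoproteins, 0.43 ± 0.18. Calr, the calreticulin of the loading complex, chosen after its value was seen, stood at 13.24 and 13.22 in Hi and 13.06 and 12.94 in Lo, a difference of 0.24 ± 0.14. Of 6 cytosolic peptidases, all 6 were on the positive side, while 46.4% of all genes were negative. Among them, 2 were higher at an unadjusted p under 0.05, against 9.25% of all genes, and 0 lower, against 11.0%. The median of the 6 was 0.17. It was 0.39 without Lo replicate 1, 0.26 without Lo replicate 2 or with arrays shifted to 1 median, and 0.11 without Hi replicate 1. Npepps, an aminopeptidase chosen after its value was seen, had 0.01 ± 0.41, and -0.04 when its probe sets were averaged. Lap3, a leucine aminopeptidase, had 0.75 ± 0.15 (adjusted p = 0.134) and Thop1, which destroys peptides, 0.76 ± 0.19 (adjusted p = 0.182; 0.50 when its probe sets were averaged). Tpp2, a large peptidase chosen after its value was seen, had 0.05 ± 0.18, and -0.49 when its 5 probe sets were averaged.

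Other heavy chains that resemble class I ranged widely, and several had no signal above the dim limit. Of 27 listed genes, 13 had a probe set of their own. Of these 13, 9 had a negative difference, against 46.4% of all genes, and 4 a positive one, with a median of -0.15, from -2.03 to 0.21. Of the 13, 5 never exceeded the dim limit, among them H2-Q10 (chosen after its value was seen), whose difference is that median. With dim probe sets left out it was -1.14, while that of the members was -0.18. The dim filter kept a probe set that was above the limit on both arrays of either group. Cd1d2, chosen after its value was seen, had -1.28 and was kept through Lo alone, so the -1.14 depends on this rule. At an unadjusted p under 0.05, 3 of the 13 were lower, against 11.0% of all genes, and 0 higher, against 9.25%. Fcgrt, the heavy chain of the neonatal Fc receptor, which pairs with beta-2-microglobulin and recycles IgG, stood at 7.95 and 7.93 in Hi and at 9.77 and 10.16 in Lo. Fcgrt was thus 4.08-fold dimmer in Hi, by -2.03 ± 0.19 (SE) on the log2 scale, and missed the threshold over all probe sets (limma adjusted p = 0.0842). Fcgrt passed in the fits over genes, with an adjusted p of 0.0397 for single probe sets and 0.0316 for means over the probe sets of a gene; the first called 214 of 18193 genes lower (1.18%) and 190 higher (1.04%), and the second 276 lower (1.52%) and 252 higher (1.39%). In these fits 0 of the 9 member genes were called, with lowest adjusted p of 0.179 and 0.162. Mr1, which presents vitamin B metabolites, stood at 7.45 and 7.81 in Hi and at 8.59 and 8.95 in Lo, a difference of -1.14 ± 0.22 (adjusted p = 0.135). H2-T3, the thymus leukaemia antigen, chosen after its value was seen, had -1.43 ± 0.42 (adjusted p = 0.22), while Cd1d1, which presents lipids and was also chosen after its value was seen, had -0.10 ± 0.13. Whether these differ from the members was not tested.

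Regulators of class I transcription pointed both ways. Of 15 measured, 10 were negative, against 46.4% of all genes, and 5 positive, with a median of -0.26 (-0.16 with arrays shifted to 1 median). At an unadjusted p under 0.05, 1 was lower, against 11.0% of all genes, and 1 higher, against 9.25%. Ciita, the class II activator that can also act on class I promoters, stood at 6.08 and 6.08 in Hi and at 6.68 and 7.19 in Lo, a difference of -0.85 ± 0.22 (SE; limma adjusted p = 0.188). Irf8, an interferon regulatory factor of the myeloid lineage, had 0.63 ± 0.22 (adjusted p = 0.263). Irf1, which drives class I genes after interferon-gamma and was chosen after its value was seen, had -0.57 ± 0.21 (adjusted p = 0.279).

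Interferon genes mostly had negative differences of Hi minus Lo. Of 9 measured receptor and signalling genes, 7 were negative, against 46.4% of all genes, with a median of -0.49. At an unadjusted p under 0.05, 5 of the 9 were lower, against 11.0% of all genes, and 0 higher, against 9.25%. The median was -0.25 with the probe sets of each gene averaged, where the receptor gene Ifnar1, chosen after its value was seen, went from -0.45 to -0.01. Leaving out Lo replicate 2 gave -0.33, and leaving out Lo replicate 1 gave -0.64. The kinase gene Jak2 had -0.82 ± 0.19 (SE; limma adjusted p = 0.168) and Stat2 -0.56 ± 0.17 (adjusted p = 0.222; -0.36 when its probe sets were averaged), while the receptor chain gene Ifngr1, chosen after its value was seen, had 0.73 ± 0.28. Of 31 interferon response genes, 27 were negative, against 46.4% of all genes, with a median of -0.59. At an unadjusted p under 0.05, 13 of the 31 were lower, against 11.0% of all genes, and 0 higher, against 9.25%. Ddx58, the RNA sensor RIG-I, had -0.91 ± 0.13 (adjusted p = 0.102) and the antiviral gene Mx2 -1.88 ± 0.28 (adjusted p = 0.106). None of these genes passed over all probe sets. The response list averaged 9.22 and 9.49 (Hi) against 9.86 and 10.39 (Lo) on the log2 intensity scale, while the 9 class I genes averaged 11.56 and 11.69 (Hi) against 11.73 and 11.83 (Lo). In both lists Hi replicate 1 was lowest and Lo replicate 2 highest. Leaving out Lo replicate 2 put the median of the response list at -0.41, and leaving out Lo replicate 1 put it at -0.91.

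MHC class II molecules show peptides taken up from outside the cell, and most of their genes had negative differences. Of 11 measured genes, 9 were negative, against 46.4% of all genes, with a median of -0.69. At an unadjusted p under 0.05, 5 of the 11 were lower, against 11.0% of all genes, and 0 higher, against 9.25%. H2-Eb1, a class II beta chain, stood at 9.42 and 9.67 in Hi and at 11.42 and 11.56 in Lo. This 3.86-fold difference, -1.95 ± 0.16 (SE), had a limma adjusted p of 0.0839 over all probe sets and of 0.0385 in the fit with 1 probe set per gene. Cd74, the invariant chain, stood at 11.41 and 11.66 in Hi and at 12.94 and 13.22 in Lo, a difference of -1.54 ± 0.19 with adjusted p of 0.0949 and 0.0486 in the same fits. The class II median ran from -0.97 to -0.41 when single arrays were left out, the latter without Lo replicate 2, and was -0.45 without Hi replicate 1. The difference between the class I and the class II lists was not tested.

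**Figure D3:**
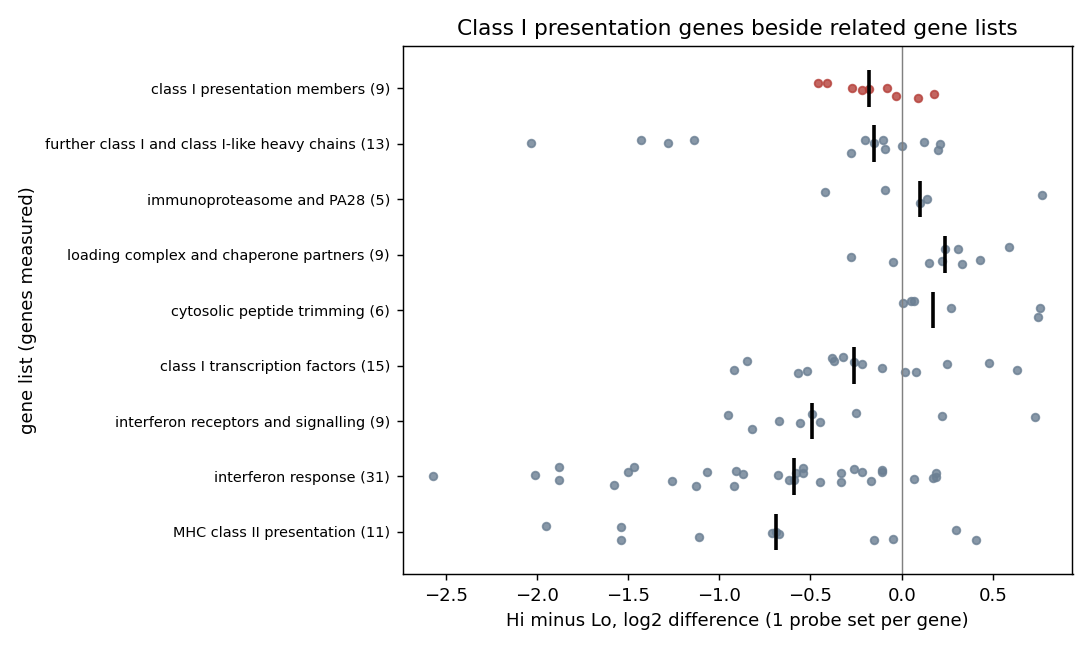
Difference of Hi minus Lo on the log2 scale for each gene of 9 lists, with 1 probe set per gene and 1 point per gene; the black bars are list medians and the class I members are in red. The class I members lie between -0.46 and 0.18, while the interferon response gene Ifit1, chosen after its value was seen, reaches -2.57 and the MHC class II gene H2-Eb1 -1.95.

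**Figure D4:**
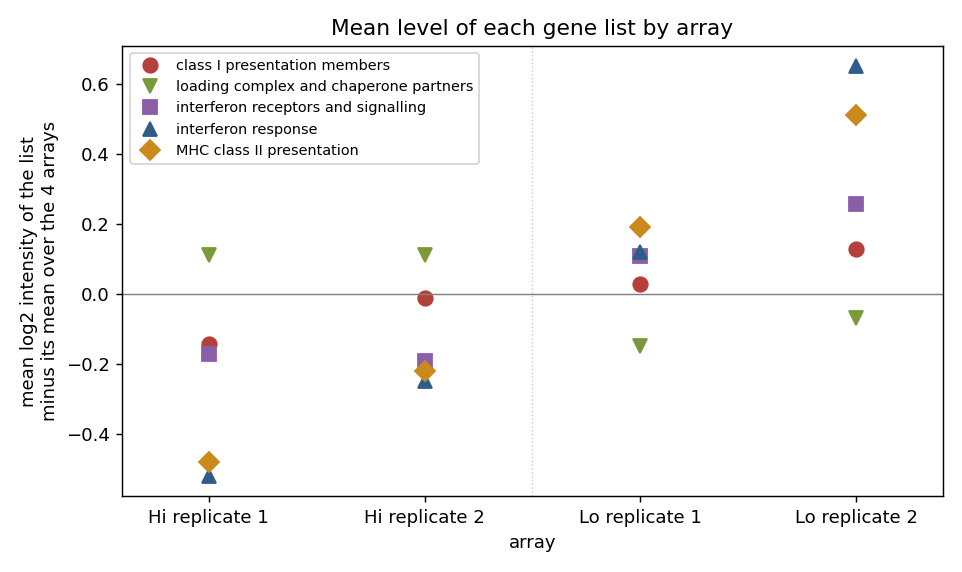
Mean log2 intensity of 5 gene lists on each of the 4 arrays, minus the mean of that list over the 4 arrays. Class I members, interferon response and MHC class II genes are lowest on Hi replicate 1 and highest on Lo replicate 2, and the loading complex and chaperone partners are higher on both Hi arrays.

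The genes whose centred levels over the 4 arrays lay nearest to the mean of the 9 members were Chka, Jarid2, Macf1, Aimp1 and Asah1. Their root mean square distance was 0.008 to 0.017 on the log2 scale, among 11333 named genes above the dim limit. Chka had a difference of -0.15, the same as the mean of the members. With 4 arrays and so flat a profile this is a description of likeness only.

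The arrays were checked for other cell types and for RNA quality. The LSK markers Kit, Cd34 and Flt3 were above the dim limit on all arrays, and Ly6a, the gene of Sca1, was not analysed here. Summed over 9 of 10 markers, LSK intensity was 45022 to 47015 in Hi and 53010 to 53411 in Lo. Of these 9, 8 had a negative and 1 a positive difference, with a median of -0.27. Among them, 3 were lower at an unadjusted p under 0.05, against 11.0% of all genes, and 0 higher, against 9.25%. Erythroid markers (8 of 10 measured) summed to 17288 to 20547 in Hi and 3029 to 3475 in Lo, with Hba-a1 and Alas2 never above the dim limit. B cell markers (9 of 10) summed to 3320 to 3338 in Hi and 3879 to 3909 in Lo, with Pax5 at or under the limit. Yet 5 of these 9 had a positive and 4 a negative difference, with a median of 0.16. Macrophage and monocyte markers (9 of 10) summed to 2022 to 2708 in Hi and 1688 to 1695 in Lo, with Marco at or under the limit. Endothelial markers (10 of 10) summed to 3758 to 3815 in Hi and 4698 to 4780 in Lo, with Cdh5 at or under the limit. Yet 4 of these 10 had a positive and 6 a negative difference, with a median of -0.1. Natural killer cell markers (9 of 10) summed to 8424 to 8790 in Hi and 6665 to 7069 in Lo, although 8 of the 9 had a negative difference, with a median of -0.94. Nkg7, chosen after its value was seen, was the brightest of the 9 and the only one higher in Hi, by 0.55 ± 0.17 (SE). The sums for T cells (701 to 922 in Hi, 848 to 906 in Lo; 8 of 10, Cd8b1 at or under the limit), dendritic cells (7397 to 8347 and 7279 to 8931; 9 of 10) and neutrophils (20136 to 29246 and 20541 to 33362; 8 of 10) overlapped between the groups. The brightest of the 9 dendritic cell markers was Flt3, also an LSK marker, so that sum mostly follows it. Flt3 stood at 12.3 and 12.5 in Hi and at 12.4 and 12.7 in Lo. Of the 9, 4 had a positive and 5 a negative difference. Itgax had 0.76 ± 0.14 (SE) and Zbtb46 1.31 ± 0.34. Xcr1, at or under the dim limit on 3 arrays, had -1.52 ± 0.32. These genes were chosen after their values were seen. For the Gapdh controls, the 3′ probe set exceeded the 5′ probe set by 0.63 and 0.65 on the log2 scale in Hi and by 0.74 and 0.78 in Lo. The Actb controls gave 0.6 and 0.55 (Hi) against 0.84 and 0.57 (Lo), so that the groups overlapped and Lo replicate 1 stood highest. The part of these cell types and of RNA quality in the class I values was not tested.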

How the data were processed

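Values are RMA intensities that the authors deposited, a linear value for each probe set on each array. The submitters' processing notes name RMA without a version. RNA was amplified before labelling, per the labels' protocols, which can alter differences. RMA brings the arrays to like distributions, so differences in RNA content per cell are not visible.

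The intensities were log2-transformed with no offset. Of 45101 probe sets, 64 controls were left out. The platform annotation gave 1 symbol to 34945, several to 932 and none to 9160, and Entrez identifiers matched 34741 to RefSeq (GRCm38.p6) with 0 symbols changed. Hi minus Lo was fitted on 4 arrays by lmFit and eBayes (limma 3.58.1, R 4.3.3; no block, two-sided), adjusted by Benjamini-Hochberg over all 45037 probe sets and called under 0.05; intervals are 95%. The fit has 2 residual degrees of freedom and gains 1.976 from the prior, and the number of arrays limits the precision. An exact permutation test of 2 against 2 arrays cannot go below p = 0.333 and was not used. The estimates of the limma fit were tested on simulated data with known shifts.

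In lists, a gene is represented by its brightest probe set on average. The dim limit rests on 27 bacterial control probe sets. Named are all members, the 2 genes of smallest unadjusted p in each related list, the 5 genes of nearest profile, and those marked as chosen otherwise. The members and lists were chosen with earlier results of these data known. The alternatives tried were the replicate block, leaving out arrays, fits over genes, a dim filter, 3 scalings, an offset of 16, 2 variance models and, for the member genes, the probe set of smallest SD within groups.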

Additional observations from a re-analysis of the deposited data

How the results depend on the processing

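The count of member calls was 0 in each of the 14 alternatives that refit all features, the fits over genes testing 9 member genes and the dim filter testing fewer probe sets; leaving out single arrays gave 0 to 0. The smallest-SD probe set was tried for the values of the 9 genes alone. Over 135 values of the 9 genes under 15 alternatives, 0 passed (lowest adjusted p 0.156). The median of the members ran from -0.24 to -0.05 when single arrays were left out. With the replicate block 0 probe sets were called over all and 0 among the members, and the median was -0.18; replicate 1 deviations in Hi and Lo correlated at 0.072 over probe sets, and nothing in the labels says that a number is shared by more than name. Over all probe sets 0 were called when single arrays were left out (0 to 0), 1 without moderation, 404 genes with 1 probe set per gene and 528 with the mean of all probe sets, fits that test 18193 genes. Signs turned in 6 values. Leaving out single arrays, Erap1 ran from -0.05 (without Lo replicate 1) to 0.41 and Tap1 from -0.58 to 0.14 (without Lo replicate 2). With the mean of all probe sets Tap1 was 0.06 and Tapbp 0.19, and with arrays shifted to 1 median B2m was 0.07 and Tapbp 0.01; the cause was not tested. Of 154 list medians, 14 moved by more than the spread between replicates. Probe sets near the dim limit carry little signal, which limits 4 of the 26.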

Other observations

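Genes that remove class I molecules from the surface or from the endoplasmic reticulum had no common direction. Of 8 measured, 4 were negative and 4 positive, with a median of -0.04 (-0.22 with the probe sets of each gene averaged, 0.06 with arrays shifted to 1 median). At an unadjusted p under 0.05, 1 of the 8 was lower, against 11.0% of all genes. The ubiquitin ligase gene Marchf9, whose product takes class I molecules from the surface, stood at 4.29 and 4.99 in Hi and at 6.08 and 6 in Lo, a difference of -1.39 ± 0.28 (SE; limma adjusted p = 0.141), with 1 Hi array at or under the dim limit; it was -0.70 with its probe sets averaged. Marchf1, which acts on class II molecules, stood at 5.42 and 5.91 in Hi and at 8.76 and 6.52 in Lo, a difference of -1.98 ± 0.82 (adjusted p = 0.328), with Lo replicate 1 the highest array, and -0.87 with its probe sets averaged.

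Of 4 ligands that restrain T cells or phagocytes, 3 were negative, against 46.4% of all genes, and 1 positive, with a median of -0.39. Leaving out Lo replicate 1 gave -0.24, and leaving out Lo replicate 2 gave -0.54. Pdcd1lg2, a ligand of the receptor PD-1, stood at 7.9 and 7.59 in Hi and at 8.59 and 8.85 in Lo, a difference of -0.97 ± 0.19 (SE; limma adjusted p = 0.139). Cd274, the other ligand of PD-1, stood at 10.54 and 10.14 in Hi and at 11.07 and 10.74 in Lo, a difference of -0.57 ± 0.23 (adjusted p = 0.314).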
